A study of Mus musculus with 17 samples.

Results

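The 8 genes described here, Shh, Foxa1, Foxa2, Lmx1a, Lmx1b, En1, Pitx3 and Otx2, are regulators of midbrain dopaminergic fate and were taken as a list of names, chosen with earlier results of these data known. All 8 are among the 20328 genes of the RNA-seq table, and all 8 passed edgeR's filter on low counts, which left 19300 genes for testing. They are also among the 26646 genes of the scRNA-seq table. No region of the H3K27ac CUT&RUN table or of the ATAC-seq table is named for any of them.

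The libraries came from the brain of wild-type (WT) mice of the ICR strain, which the study's methods describe as female and 8 weeks old at surgery. Sham mice carried no lesion, 6-OHDA mice received the dopaminergic neurotoxin 6-hydroxydopamine (6-OHDA) at 10 µg/µl on one side of the substantia nigra, and 6-OHDA+NDST3 mice received the same toxin and, 5 days later, 2 µl of an AAV9 virus carrying human NDST3, a heparan sulfate enzyme, under the CMV promoter, which is not restricted to neurons. By the study's methods, lesioned mice were given saline or NDST3, and no group used here is labelled as given a control virus. Virus and transgene therefore cannot be told apart in these libraries. RNA-seq has 2 sham libraries, 1 6-OHDA library and 2 6-OHDA+NDST3 libraries, with 51003699 to 70533326 counts each. The labels do not say whether the replicates came from separate mice, so p-values measure the spread between these libraries, which may be technical. The single 6-OHDA library has no replicate, and each of its tests assumes that it varies like the other 4 libraries.

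In the embryo, Shh secreted from the floor plate induces the forkhead factors Foxa1 and Foxa2, and these act with the LIM-homeodomain factors Lmx1a and Lmx1b to specify dopaminergic progenitors. Otx2 sets midbrain against hindbrain identity, while En1 and Pitx3 are needed for dopaminergic neurons to mature and survive. Several of the 8 stay on in adult dopaminergic neurons, and some serve in other cells too, such as Lmx1b and En1 in serotonin neurons of the brainstem and Otx2 in the choroid plexus.

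The promoters of 4 of these genes are printed here as examples of the patterns below: Foxa1 and Foxa2, a pair of related factors of which Foxa2 alone rose with NDST3 by adjusted p, Lmx1b, whose promoter window also holds the start of a gene on the other strand, and Otx2, which passed in no comparison. RefSeq's promoter table for GRCm38.p6 holds 12 promoters for 7 of the 8 members. Each run is the 250 bases before a start site on the minus strand, written 5′ to 3′. Capitals mark a motif in Foxa1 and Otx2, and in Lmx1b the 16 bases that belong to both gene models. The windows lie at chr12:57546112-57546361 for Foxa1, chr2:148046970-148047219 for Foxa2, chr2:33641099-33641348 for Lmx1b and chr14:48665110-48665359 for the third of 4 Otx2 promoters.
Foxa1: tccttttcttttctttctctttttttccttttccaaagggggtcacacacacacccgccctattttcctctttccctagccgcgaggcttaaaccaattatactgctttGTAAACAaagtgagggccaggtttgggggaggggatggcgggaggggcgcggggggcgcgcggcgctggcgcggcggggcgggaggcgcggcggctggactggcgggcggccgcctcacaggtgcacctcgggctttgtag
Foxa2: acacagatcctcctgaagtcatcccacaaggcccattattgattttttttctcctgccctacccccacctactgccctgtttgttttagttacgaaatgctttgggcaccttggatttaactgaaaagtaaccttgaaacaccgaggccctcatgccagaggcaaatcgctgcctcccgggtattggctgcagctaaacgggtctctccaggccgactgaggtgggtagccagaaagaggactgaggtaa
Lmx1b: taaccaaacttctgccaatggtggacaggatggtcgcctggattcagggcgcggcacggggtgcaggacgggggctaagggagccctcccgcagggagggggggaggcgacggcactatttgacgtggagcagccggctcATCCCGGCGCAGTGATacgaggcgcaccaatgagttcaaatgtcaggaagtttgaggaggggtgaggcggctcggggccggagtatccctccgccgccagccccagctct
Otx2: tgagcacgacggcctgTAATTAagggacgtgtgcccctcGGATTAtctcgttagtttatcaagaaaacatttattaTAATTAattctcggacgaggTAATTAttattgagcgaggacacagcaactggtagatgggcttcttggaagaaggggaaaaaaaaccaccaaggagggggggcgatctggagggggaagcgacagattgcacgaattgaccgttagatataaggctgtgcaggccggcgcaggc
The 12 promoters were searched on both strands, over these 250 bases and the 50 that follow the start, for 5 motifs. The forkhead motif TGTTTAC was found in 1, that of Foxa1, where its reverse complement GTAAACA begins 141 bases before the start, and 3.65% of all 32851 promoters hold it. The homeodomain motif TAATTA was found in 2 promoters, both of Otx2, against 5.29% of all promoters, and the printed one holds it 3 times, beginning 234, 174 and 154 bases before the start. The OTX and PITX type motif TAATCC, read as GGATTA, begins 211 bases before the same start and is in 7.06% of all promoters. None of the 12 held AGGTCA (16.3% of all promoters) or the GLI core CCACCCA (9.30%). These are matches of letters, not measured sites.

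After 6-OHDA, 6 of the 8 members were lower than in sham by the study's threshold, a fold change of 2 or more together with a raw p under 0.05, beside 10.1% of all genes tested that were lower by that rule. None was higher, beside 14.4%. The same 6 were lower by adjusted p, meaning a Benjamini-Hochberg adjusted p under 0.05 over all genes from the quasi-likelihood test of edgeR, beside 17.1% of all genes. None was higher by adjusted p, beside 18.8%. The falls were largest for Foxa2 and En1, followed by Pitx3 and Foxa1, and smaller for Lmx1b and Shh. The median log2 fold change of the 8 was -2.09, against -0.00 for all genes. Without sham replicate 1, and likewise without sham replicate 2, 0 members and 0 other genes passed by adjusted p in edgeR, while 6 members were called by the fold rule. In bulk RNA, fewer cells of a type, less RNA per cell and a difference in the tissue taken cannot be told apart.

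With NDST3, 3 members (Shh, Foxa2 and En1) were higher than in the 6-OHDA library by the fold rule, beside 7.3% of all genes. Shh and Foxa2, 2 of the 8, were also higher by adjusted p, beside 9.06% of all genes. No member was lower by either rule, beside 8.37% of all genes by the fold rule and 6.59% by adjusted p. Leaving out sham replicate 1, sham replicate 2 or 6-OHDA+NDST3 replicate 1 took the count by adjusted p to 0, and without 6-OHDA+NDST3 replicate 2 it was 2, but of Foxa2 and En1. The median log2 fold change of the members was 0.98, against 0.00 for all genes. Both comparisons use the same single 6-OHDA library, so a value that is low in that library by chance lowers one and raises the other.

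Against sham, 5 members (Foxa1, Foxa2, Lmx1a, Lmx1b and Pitx3) were lower in 6-OHDA+NDST3 by the fold rule, beside 1.08% of all genes, and none was higher, beside 4.78%. At an adjusted p under 0.05 edgeR called 0 members and 0% of all genes, with a smallest adjusted p of 0.103 over all genes, while 5 members and 2744 genes had a raw p under 0.05. DESeq2 called 5 members and 995 of 19300 genes at its adjusted p. Without 6-OHDA+NDST3 replicate 1, edgeR called 1 member, En1, and 111 of 19180 genes. The median log2 fold change of the 8 was -1.54, against 0.01 for all genes.

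**Figure D1:**
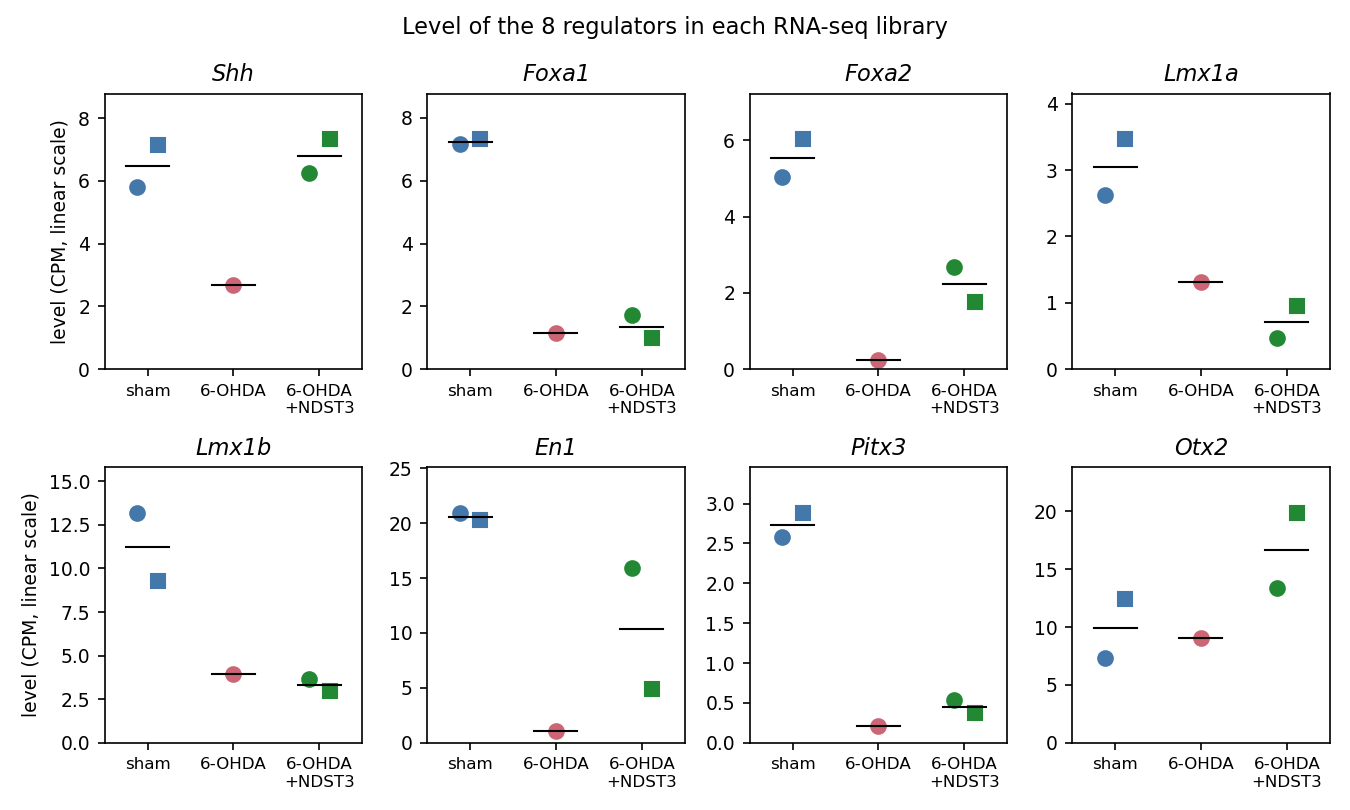
Level of each of the 8 regulators in each RNA-seq library, in counts scaled to library size (CPM) on a linear axis that differs between panels. Circles are replicate 1, squares replicate 2, and the black line is the group mean. Shh in both 6-OHDA+NDST3 libraries lies at the sham level, while Foxa1, Foxa2, Lmx1a, Lmx1b, En1 and Pitx3 stay below both sham libraries.

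Per length, the order in sham libraries was led by En1 at 19.7 ± 0.49 TPM (SD, n = 2), followed by Otx2 at 9.65 ± 3.82 TPM. Foxa2 (6.48 ± 0.826 TPM), Shh (5.96 ± 0.901 TPM), Foxa1 (5.47 ± 0.141 TPM), Lmx1b (5.16 ± 1.31 TPM) and Pitx3 (4.18 ± 0.249 TPM) followed. From Otx2 to Pitx3, each gene differed from the next by less than the larger of their SDs, so their order is not settled. Lmx1a was the lowest at 1.91 ± 0.547 TPM. In the 6-OHDA library the order was another one, led by Otx2 (8.10 TPM) and Shh (2.12 TPM), with Pitx3 (0.221 TPM) and Foxa2 (0.220 TPM) at its end.

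Shh (NCBI Gene 20423, chr5:28456840-28467101 of GRCm38.p6), the secreted ligand that patterns the ventral midbrain, had 299 and 494 counts in sham (5.81 and 7.15 CPM). The 6-OHDA library had 138 counts (2.67 CPM), and the 6-OHDA+NDST3 libraries had 372 and 437 counts (6.25 and 7.32 CPM). The 6-OHDA library was the lowest, and the 6-OHDA+NDST3 libraries overlapped with sham. Shh fell by 1.28 on the log2 scale after 6-OHDA (SE 0.27, adjusted p = 0.0225, edgeR) and rose by 1.34 with NDST3 (SE 0.27, adjusted p = 0.0415, edgeR). The rise missed the adjusted threshold of edgeR with any 1 of the 4 sham and NDST3 libraries left out, at adjusted p = 0.107 and 0.108 without sham replicate 1 or 2, and 0.079 and 0.066 without 6-OHDA+NDST3 replicate 1 or 2. Against sham, the 6-OHDA+NDST3 log2 fold change was 0.07 (SE 0.20, adjusted p = 0.907, edgeR), with a level of 105% of the sham mean. The 2 libraries stood at 96.4% and 113% of it.

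Of 20 other listed hedgehog ligands, receptors, transducers and effectors, all tested, 2 rose and 2 fell after 6-OHDA by adjusted p in edgeR, beside 18.8% and 17.1% of all genes, with a median log2 fold change of 0.23. Gas1, a co-receptor for Shh, rose by 1.66, and Smo, the signal transducer, rose by 0.87 (adjusted p = 0.00823 and 0.0122, edgeR). Ptch1, the Shh receptor and itself a target of the pathway, fell by 1.00 (adjusted p = 0.018, edgeR), and Gpr161, a ciliary receptor that restrains the pathway, fell by 1.18 (adjusted p = 0.0239, edgeR). With NDST3, Gas1 fell by 1.498 and Smo fell by 0.71 (adjusted p = 0.032 and 0.0408, edgeR), and no gene of the list rose by adjusted p. Ptch1 stood at 143 and 159 CPM in sham, 75.7 CPM after 6-OHDA, and 139 and 108 CPM with NDST3, so the 6-OHDA library was the lowest, as it was for Shh. Its NDST3 log2 fold change was 0.70 (SE 0.19, adjusted p = 0.0648, edgeR). Gli1, a transcriptional effector and target, had a log2 fold change of -1.02 after 6-OHDA and 0.80 with NDST3 (adjusted p = 0.0536 and 0.122, edgeR).

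Foxa1 (NCBI Gene 15375, chr12:57540628-57548029 of GRCm38.p6), a forkhead pioneer factor of the floor plate and its dopaminergic progeny, had 370 and 505 counts in sham (7.18 and 7.31 CPM), 59 after 6-OHDA (1.14 CPM), and 102 and 60 with NDST3 (1.71 and 1.01 CPM). The 6-OHDA library lay between the 2 NDST3 libraries, and all 3 lay far below sham. Foxa1 fell by 2.66 on the log2 scale after 6-OHDA (SE 0.44, adjusted p = 0.0126, edgeR). With NDST3 its log2 fold change was 0.25 (SE 0.40, adjusted p = 0.681, edgeR), and -0.19 without 6-OHDA+NDST3 replicate 1.

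Foxa2 (NCBI Gene 15376, chr2:148042877-148046969 of GRCm38.p6), its close relative in the same cells, went from 259 and 416 counts in sham (5.03 and 6.03 CPM) to 12 counts after 6-OHDA (0.232 CPM). The NDST3 libraries had 160 and 105 counts (2.69 and 1.76 CPM), above the 6-OHDA library and below both sham libraries. Foxa2 fell by 4.56 after 6-OHDA (SE 0.50, adjusted p = 0.00823, edgeR), the largest fall of the 8. With NDST3 it rose by 3.25 (SE 0.48, adjusted p = 0.0335, edgeR), to 40.2% of the sham mean, while Foxa1 stood at 18.8%. The 12 reads of the 6-OHDA library bound the precision of both values.

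Since Foxa1 and Foxa2 were counted in the same libraries, their ratio needs no scaling between libraries. The Foxa2 count divided by the Foxa1 count was 0.7 and 0.824 in sham, 0.203 after 6-OHDA, and 1.57 and 1.75 with NDST3. Foxa1 had the higher count in sham and the lower count with NDST3. No test was made on this ratio, and the share of gene pairs that part the groups in this way was not computed. The 6-OHDA ratio rests on 12 Foxa2 counts. Foxa1 also shares bases with a gene on the other strand, described below, and the strand setting of the counting is not stated.

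**Figure D2:**
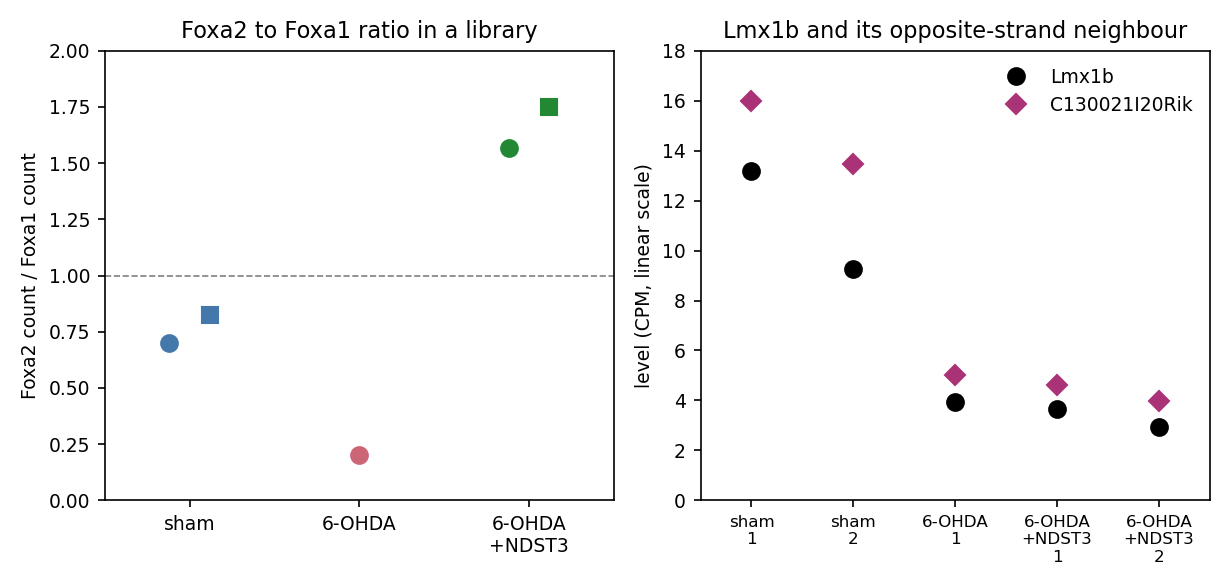
Left, the Foxa2 count divided by the Foxa1 count in each RNA-seq library (circles replicate 1, squares replicate 2, the dashed line marks equal counts), which lies below 1 in sham and 6-OHDA and at 1.57 and 1.75 in 6-OHDA+NDST3. Right, levels of Lmx1b and of C130021I20Rik, the gene that starts beside it on the other strand, in CPM on a linear axis, which fall together from sham to the other 3 libraries.

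Lmx1a (NCBI Gene 110648, chr1:167688230-167848741 of GRCm38.p6), the LIM-homeodomain factor most closely tied to midbrain floor plate fate, had 135 and 239 counts in sham (2.62 and 3.46 CPM), 68 after 6-OHDA (1.32 CPM), and 28 and 57 with NDST3 (0.470 and 0.955 CPM). Unlike the order of groups in Shh, Foxa2 and En1, both NDST3 libraries lay below the 6-OHDA library. The log2 fold change after 6-OHDA was -1.21 (SE 0.54, adjusted p = 0.14, edgeR), and with NDST3 it was -0.88 (SE 0.51, adjusted p = 0.268, edgeR), so neither passed. Against sham it was -2.09 (SE 0.43, adjusted p = 0.174, edgeR), past the fold and raw p rule.

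Lmx1b (NCBI Gene 16917, chr2:33560965-33641208 of GRCm38.p6), its relative, which is also required in serotonin neurons, had 679 and 639 counts in sham (13.2 and 9.25 CPM), 203 after 6-OHDA (3.93 CPM), and 217 and 176 with NDST3 (3.64 and 2.95 CPM). The 3 lesioned libraries lay close together and below both sham libraries. Lmx1b fell by 1.51 on the log2 scale after 6-OHDA (SE 0.32, adjusted p = 0.0235, edgeR), and its NDST3 log2 fold change was -0.25 (SE 0.30, adjusted p = 0.578, edgeR). The Lmx1a count divided by the Lmx1b count was 0.199 and 0.374 in sham, 0.335 after 6-OHDA, and 0.129 and 0.324 with NDST3, so the groups overlapped.

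The gene whose pattern over the 5 libraries was most like that of Lmx1b was C130021I20Rik, a transcript on the plus strand that starts 95 bases from the Lmx1b start site of the promoter table, in the window printed above. It ranked 1 of 15515 genes compared, with a distance of 0.196 on the log2 scale (Euclidean distance between centred log2(CPM + 0.5) values). Its levels were 15.98 and 13.48 CPM in sham, 5.03 CPM after 6-OHDA, and 4.64 and 3.99 CPM with NDST3. It fell by 1.55 after 6-OHDA (SE 0.23, adjusted p = 0.0104, edgeR), and with NDST3 its log2 fold change was -0.22 (SE 0.21, adjusted p = 0.485, edgeR). The 2 gene models share 16 bases, and the library kit keeps strand, but the strand setting of the counting is not stated.

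Further members also overlap a gene on the other strand, a group of genes chosen after the values were seen. Pitx3 overlaps Elovl3 by 414 bases and Lmx1b overlaps Gm39790 by 811 bases, and neither partner was analysed here. Ttc6 overlaps Foxa1 by 1326 bases and had 73 and 78 counts in sham, 18 after 6-OHDA, and 29 and 25 with NDST3. It fell by 1.86 after 6-OHDA (SE 0.46, adjusted p = 0.0334, edgeR), and ranked 54 of 15516 genes by likeness to Foxa1. Without a stated strand setting, reads of Ttc6 and Foxa1 in the shared bases cannot be told apart. 9530036O11Rik overlaps Shh by 118 bases and had 37 and 63 counts in sham, 15 after 6-OHDA, and 33 and 33 with NDST3. Its log2 fold change after 6-OHDA was -1.49 (SE 0.46, adjusted p = 0.0614, edgeR), and it ranked 2427 of 15516 by likeness to Shh.

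En1 (NCBI Gene 13798, chr1:120602487-120607991 of GRCm38.p6), a homeodomain factor that maintains adult dopaminergic neurons, had 1078 and 1399 counts in sham (20.9 and 20.3 CPM), 53 after 6-OHDA (1.03 CPM), and 947 and 291 with NDST3 (15.9 and 4.88 CPM). Both NDST3 libraries lay between the 6-OHDA library and sham, but replicate 1 was 3.26 times replicate 2. En1 fell by 4.32 after 6-OHDA (SE 0.87, adjusted p = 0.0199, edgeR). With NDST3 the log2 fold change was 3.34 (SE 0.83, adjusted p = 0.056, edgeR), past the fold rule, and without 6-OHDA+NDST3 replicate 2 it was 3.92 (adjusted p = 0.0296, edgeR). Without 6-OHDA+NDST3 replicate 1 it was 2.25 (adjusted p = 0.0602, edgeR). Relative to the sham mean, the 2 NDST3 libraries stood at 77.2% and 23.7%.

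Some genes known from the embryonic midbrain and hindbrain border were unequal between the NDST3 libraries. Pax5, which was picked for its likeness to En1, had 22.5 and 19.4 CPM in sham, 2.59 CPM after 6-OHDA, and 18.6 and 6.38 CPM with NDST3, and it was the second of the 3 genes most like En1 (distance 0.831), lying between C1ql4 (0.797) and Drd2 (0.841). En2, the paralog of En1, had 18.3 and 19.8 CPM in sham, 3.68 CPM after 6-OHDA, and 20.1 and 8.51 CPM with NDST3. Of these, only Gbx2, a hindbrain-side border factor of the embryo, ran the other way. Gbx2 had 5.11 and 3.69 CPM in sham, 5.13 CPM after 6-OHDA, and 1.19 and 16.6 CPM with NDST3. Markers of serotonin neurons, which lie caudal to the nigra, summed to 357 and 179 CPM in sham, 14.2 CPM after 6-OHDA, and 182 and 141 CPM with NDST3. All 6 of these markers fell after 6-OHDA and 5 of 6 rose with NDST3 by adjusted p in edgeR, beside 17.1% and 9.06% of all genes. The part of these cells in the En1 and Lmx1b values was not tested.

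Pitx3 (NCBI Gene 18742, chr19:46135281-46148325 of GRCm38.p6), a homeodomain factor that activates Th and other dopaminergic genes, had 133 and 199 counts in sham (2.58 and 2.88 CPM), 11 after 6-OHDA (0.213 CPM), and 32 and 22 with NDST3 (0.537 and 0.369 CPM). The NDST3 libraries lay above the 6-OHDA library but far below sham. Pitx3 fell by 3.67 on the log2 scale after 6-OHDA (SE 0.50, adjusted p = 0.00922, edgeR). Its NDST3 log2 fold change was 1.08 (SE 0.48, adjusted p = 0.167, edgeR), and the level reached 16.6% of the sham mean. Genes most like Pitx3 included Ret (distance 0.453), a receptor for the dopaminergic survival factor GDNF, and Rtl1 (0.533).

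Otx2 (NCBI Gene 18424, chr14:48656781-48667644 of GRCm38.p6), which sets midbrain identity and is kept in dopaminergic neurons of the ventral tegmental area and in the choroid plexus, had 379 and 859 counts in sham (7.36 and 12.4 CPM). It had 468 counts after 6-OHDA (9.06 CPM) and 798 and 1186 with NDST3 (13.4 and 19.9 CPM). The 6-OHDA library lay between the sham libraries, and both NDST3 libraries lay above them. The log2 fold change after 6-OHDA was -0.13 (SE 0.40, adjusted p = 0.821, edgeR), and 0.30 without sham replicate 2. With NDST3 it was 0.88 against 6-OHDA (SE 0.41, adjusted p = 0.188, edgeR) and 0.75 against sham (SE 0.32, adjusted p = 0.388, edgeR), so no comparison passed.

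The highest Otx2 value was in the library that stood apart in choroid plexus transcripts. The 11 choroid plexus markers summed to 75.9 and 31.9 CPM in sham, 53.5 CPM after 6-OHDA, and 23.8 and 1196 CPM with NDST3. Ttr, the transthyretin gene that choroid plexus expresses abundantly, made most of it, at 1028 CPM in 6-OHDA+NDST3 replicate 2 and 2.30 CPM in replicate 1. None of the 11 markers passed an adjusted p of 0.05 in any comparison by edgeR. In replicate 1, where choroid plexus markers were low, Otx2 was at 135% of the sham mean, and in replicate 2 at 201%. The part of the choroid plexus in Otx2 was not tested.

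**Figure D3:**
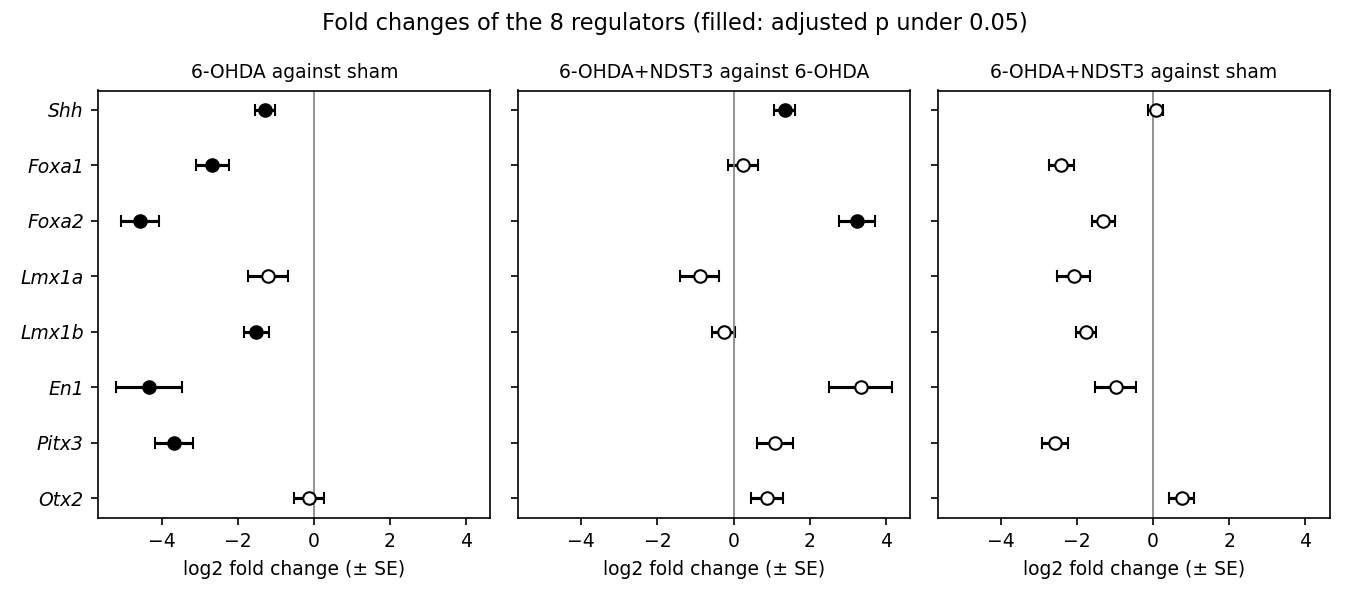
Log2 fold change of the 8 regulators in the 3 RNA-seq comparisons, with bars of 1 standard error; filled points have an edgeR adjusted p under 0.05. After 6-OHDA 6 points are filled, with NDST3 against 6-OHDA those of Shh and Foxa2, and against sham none.

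The fall of several members was of the size of the fall of neuronal transcripts in general. The 12 neuron markers summed to 8250 and 9140 CPM in sham, 2983 CPM after 6-OHDA, and 7378 and 6275 CPM with NDST3. All 12 fell after 6-OHDA and 9 rose with NDST3 by adjusted p, beside 17.1% and 9.06% of all genes. Their median log2 fold changes were -1.53 and 1.18. The log2 fold changes of Lmx1b, Shh and Lmx1a after 6-OHDA lay near that median, while those of Foxa2, En1, Pitx3 and Foxa1 were more negative. The markers of the 10-gene dopaminergic neuron list summed to 1226 and 1197 CPM in sham, 233 CPM after 6-OHDA, and 390 and 365 CPM with NDST3, and all 10 fell after 6-OHDA. Their median log2 fold change was -3.56 after 6-OHDA, 1.89 with NDST3 and -1.99 against sham. Against sham, the log2 fold changes of Pitx3, Foxa1, Lmx1a, Lmx1b, Foxa2 and En1 were -2.59, -2.41, -2.09, -1.77, -1.31 and -0.99. Those of Shh and Otx2 were 0.07 and 0.75. With NDST3 against 6-OHDA, Lmx1b, Shh and Lmx1a had -0.25, 1.34 and -0.88, beside the neuron median of 1.18.

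The tissue itself differed between groups in other markers. By adjusted p, 18.8% of all genes were higher and 17.1% lower after 6-OHDA, and 9.06% higher and 6.59% lower with NDST3. Microglia markers summed to 503 and 376 CPM in sham, 2883 CPM after 6-OHDA, and 1041 and 1686 CPM with NDST3, with 7 of 8 higher after 6-OHDA by adjusted p. Astrocyte markers, 5 of 8 higher, summed to 5166 and 4230 CPM, 11450 CPM, and 6512 and 7281 CPM. Hypothalamus markers, 3 of 9 higher and 1 lower, summed to 184 CPM in the 6-OHDA library against 14.6 to 30.0 CPM in the other 4. Pmch and Hcrt made most of the 6-OHDA sum, at 100 and 58.6 CPM, and Otp was the marker that fell. Mural or fibroblast markers, 6 of 8 higher after 6-OHDA and 7 of 8 lower with NDST3, summed to 988 CPM in the 6-OHDA library against 203 to 368 CPM in the other 4. Of 7 tectum and thalamus markers, 4 fell after 6-OHDA and 3 rose with NDST3, among them Pou4f1, with log2 fold changes of -4.31 and 4.72. Cortex and hippocampus markers, 2 of 6 higher after 6-OHDA and 1 of 6 lower with NDST3, summed to 37.7 CPM in the 6-OHDA library. In the other 4 they summed to 15.7 to 29.3 CPM. The part of these cells in the members' values was not tested.

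**Figure D4:**
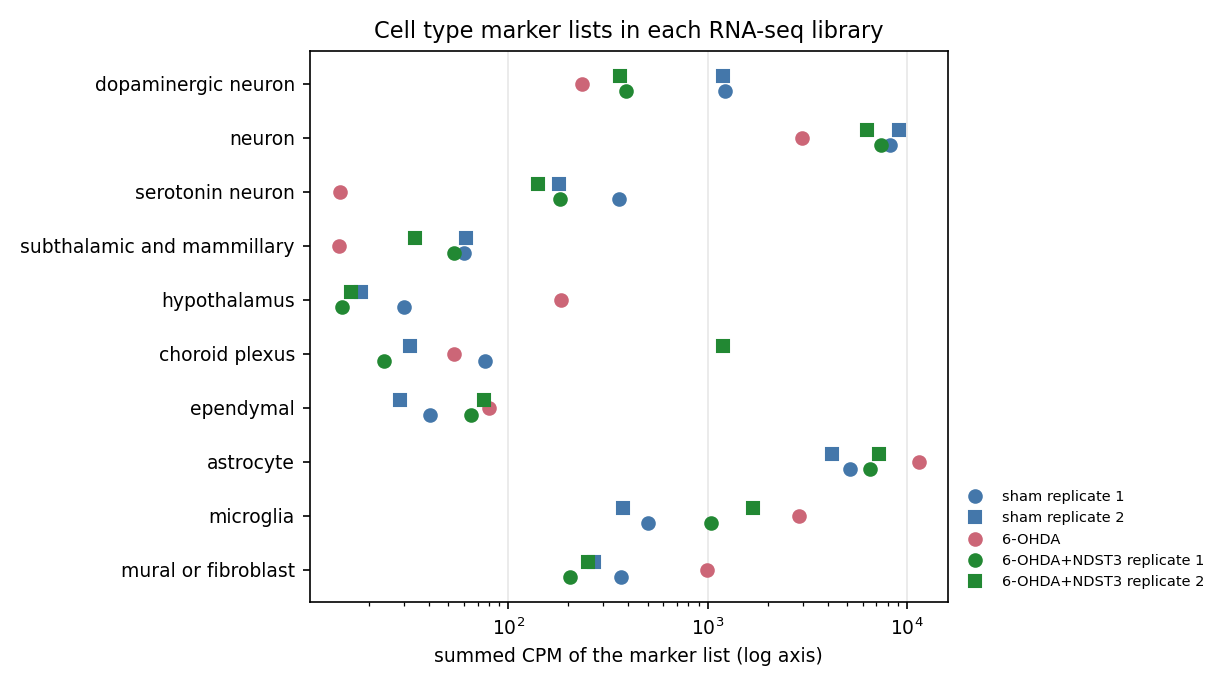
Summed CPM of 10 cell type marker lists in each RNA-seq library, on a log axis. The 6-OHDA library is lowest for the dopaminergic, neuron and serotonin lists and highest for microglia and astrocytes, and 6-OHDA+NDST3 replicate 2 is highest for choroid plexus at 1196 CPM.

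Other transcription factors of the midbrain dopaminergic lineage moved in both directions. Of 21 listed and tested, 9 fell and 3 rose after 6-OHDA by adjusted p in edgeR, beside 17.1% and 18.8% of all genes. Their median log2 fold change was -0.89. Ebf3 and Ebf2, HLH factors of differentiating neurons, fell by 2.96 and 2.85 (adjusted p = 0.00847 and 0.00881, edgeR), and with NDST3 both rose, by 2.497 and 2.38. Satb1, a chromatin organizer of nigral neurons, fell by 0.89 and rose by 0.56 with NDST3, while Sox6 rose by 0.95 and then fell by 0.58, all at an adjusted p under 0.05 in edgeR. Nr4a2 (Nurr1), required for dopaminergic identity, had 16.8 and 18.7 CPM in sham, 3.19 CPM after 6-OHDA, and 3.58 and 7.02 CPM with NDST3. Both NDST3 libraries stayed below both sham libraries. With NDST3, 3 of the 21 rose and 1 fell by adjusted p, beside 9.06% and 6.59% of all genes. Against sham, 2 were lower by the fold rule, beside 1.08% of all genes, and 0 by adjusted p.

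Of 15 listed genes of Wnt and Fgf patterning, 11 were in the table and tested, and 1 rose (Fzd3, a Wnt receptor, by 0.81) and 1 fell (Pax5, by 3.01) after 6-OHDA by adjusted p in edgeR, beside 18.8% and 17.1% of all genes. With NDST3, Fzd3 fell by 0.58 and no gene of the list rose by adjusted p.

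Genes of dopaminergic identity, several of them known targets of these regulators, fell nearly throughout. Of 15 dopaminergic identity genes, 14 were tested. After 6-OHDA, 12 fell by adjusted p in edgeR, beside 17.1% of all genes, and the median log2 fold change was -2.99. Th, the rate-limiting enzyme of dopamine synthesis, had 115 and 135 CPM in sham, 2.15 CPM after 6-OHDA, and 11.5 and 8.03 CPM with NDST3. With NDST3, 6 rose by adjusted p, beside 9.06% of all genes. Among them were Th, by 2.18, and Slc18a2, the vesicular monoamine transporter, by 2.40 (both adjusted p = 0.032, edgeR). Against sham, 9 of the 14 were lower in 6-OHDA+NDST3 by the fold rule, beside 1.08% of all genes, and 0 by adjusted p.

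For the remaining members, the genes with the most similar patterns among the 15515 compared were as follows. Foxa2 was closest to Drd2, the D2 dopamine receptor (distance 0.301), Tacr3 and Nefm. Lmx1a was closest to Trpc6 (0.389), Chrnb3, a nicotinic receptor subunit, and Snurf. Shh was closest to Grm7, a glutamate receptor (0.0482), Ripor2 and Nipal2. Otx2 was closest to Erich5 (0.240), Spag6l, a gene of motile cilia, and Nptx2. Foxa1 was closest to C130021I20Rik (0.735), Rtl1 and Ret. With a pseudocount of 1, 17 of the 24 genes found for the 8 members stayed among the 3 nearest, but none of those of Foxa2 and 1 of those of Shh.

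H3K27ac, a histone mark of active promoters and enhancers, and ATAC-seq, which reads open chromatin, were given as regions listed within 1000 bases of a start site. Their coordinates did not match GRCm38 gene ends (4.44% and 10.7% of regions within 2 kb). Gene names and distances are therefore used as listed and could not be checked. The H3K27ac table names 7253 genes in 11424 regions and that of ATAC-seq names 2684 genes in 3582 regions. None of the 8 members is named, while 34.4% of the tested genes have an H3K27ac region and 9.82% an ATAC-seq region. Among the 6044 genes with a mean TPM in the range of the members (1.07 to 11.9), the shares were 31.2% and 9.81%. With 8 genes, an absence at these shares says little about the members, and a region that was not called or not listed cannot be told apart from one without signal. Beyond the members, 4 of 21 related transcription factors had an H3K27ac region. That of Foxp2 had a signal of 10.9 in sham, 10.4 after 6-OHDA and 20.8 with NDST3, with no replicate column to test it.

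In scRNA-seq, which has 1 library per group and was deposited as means of 9 clusters for 6-OHDA and 6-OHDA+NDST3 cells, the members were nearly all in cluster 2. Lmx1b (0.156 in 6-OHDA and 0.211 in 6-OHDA+NDST3) and Otx2 (0.261 and 0.297) had the highest means on the natural log scale. Lmx1a followed at 0.0854 and 0.0971. En1 (0.0360 and 0.0475), Foxa1 (0.0201 and 0.0211) and Foxa2 (0.00750 and 0.0176) were lower, and Pitx3 and Shh were listed at 0 in cluster 2 of both groups. In the other 8 clusters, 94 of 128 member values were 0, and the highest was 0.0304, for Lmx1b in cluster 9 of the 6-OHDA library. All 6 members above 0 in cluster 2 were higher with NDST3, as were 51.2% of all genes above 0 there. The largest difference was 0.0548, for Lmx1b, beside a 95th percentile of the absolute difference over all genes of 0.0784. En1, Foxa1 and Foxa2 had means under 0.0784 in both groups, so their differences could not reach it. With 1 library per group there is no test.

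**Figure D5:**
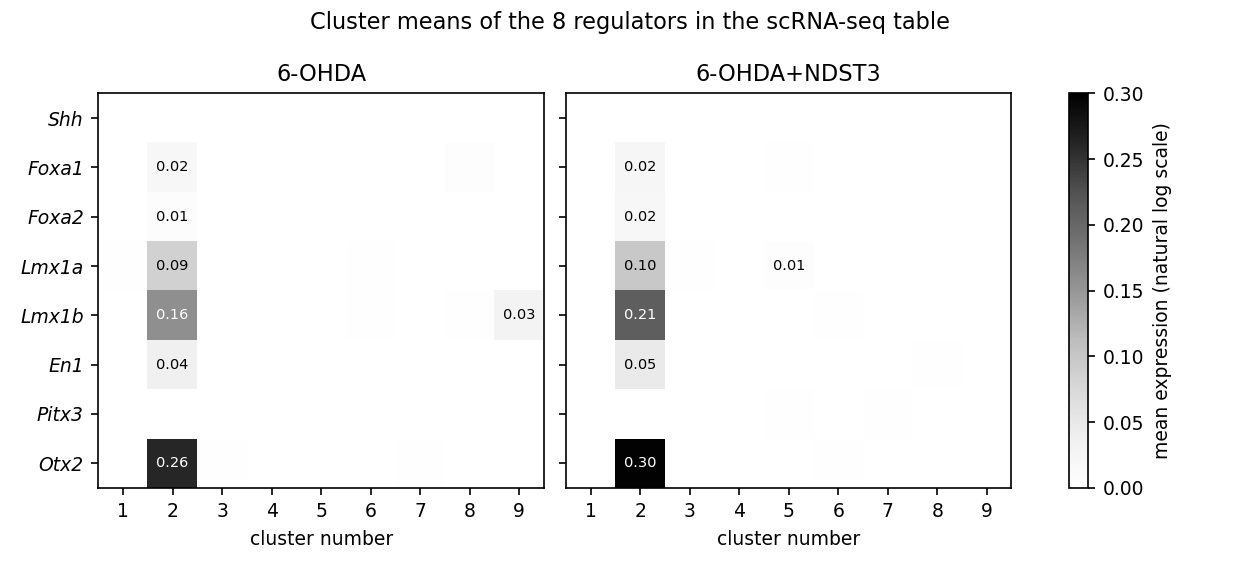
Mean of each regulator in the 9 scRNA-seq clusters of the 6-OHDA and the 6-OHDA+NDST3 library, on the natural log scale; values of 0.005 or more are printed to 2 decimals. Only cluster 2 holds values above 0.0304, and Shh and Pitx3 are at 0 there.

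Cluster 2 was not a dopaminergic cluster by its markers. Th was at 0.00104 and 0.00283 there and Slc6a3, the dopamine transporter, at 0. All 5 ependymal markers had their highest mean in cluster 2, as had 10 of 11 choroid plexus markers, 7 of 8 astrocyte markers and 6 of 7 oligodendrocyte markers and 8 of 12 neuron markers, of which 1 had a mean above 0.1 there, so it holds cells of several types. Of the dopaminergic markers 1 of 10 was highest there. Its leading genes were Dbi, Mt3, Clu, Magi2 and Npas3. It is therefore called by its number. Against doublets, the study removed cells with very many detected genes.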

How the data were processed

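RNA-seq, H3K27ac CUT&RUN, ATAC-seq and scRNA-seq tables of mouse brain were used as deposited. For RNA-seq the authors used Trimmomatic for trimming, HISAT2 for alignment to mm10 and StringTie for quantification, and deposited a read count, FPKM and TPM per gene. No listed gene is at 0 in any library. The CUT&RUN and ATAC-seq tag signal was deposited per region, with the scaling not given in the sources used here, with 1 column for both CUT&RUN libraries of a group. Trim Galore, Bowtie, Cell Ranger and bcl2fastq are named in the submitters' processing notes. The region coordinates did not match GRCm38 gene ends (4.44% and 10.7% of regions within 2 kb), and none is printed. The scRNA-seq means were deposited by the authors on what fits a natural log scale of normalized counts. The sham scRNA-seq library was not analysed here.

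Counts were tested with edgeR 4.0.16 in R 4.3.3 (TMM factors of 0.979 to 1.02, default filter, quasi-likelihood test, all 5 libraries in 1 fit with 2 residual degrees of freedom), with Benjamini-Hochberg adjustment over 19300 genes. The standard error is the size of the log2 fold change divided by the square root of F. CPM was scaled by TMM. TPM was used only to compare genes, untested. DESeq2 1.42.0, limma 3.58.1 (log2 FPKM after adding 1 or 0.1), other scalings and filters, a replicate block and leaving out each replicate were alternatives. The fit was also run on simulated data, with the outcome not reported here. Further steps used Python 3.11.15.

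The members and gene lists were chosen with earlier results of these data known. Named genes are all members, up to 4 called genes per list with the smallest raw p, the 3 genes with a mean CPM of at least 1 most like each member, of which some are not reported here. En2, Gbx2, Gli1, Gli2, Gli3, Hhat, Foxp2, Nr4a2, Pou4f1, Pmch, Hcrt, Otp, Slc6a3, Slc10a4, Ttr and the genes that overlap a member were named after their values were seen. Replicate numbers come from the sample titles.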

Additional observations from a re-analysis of the deposited data

How the results depend on the processing

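Of 336 alternative values of the 24 member fold changes, 287 kept their direction and their side of an adjusted p of 0.05, 28 no longer passed it, 14 newly passed it and 7 changed sign. The 336 include the crossed pairing described below, which was chosen after seeing the data. The sign changes were those of values near 0. For Otx2 after 6-OHDA, -0.13 became 0.25 with the replicate block, 0.0094 with limma on log2(FPKM + 1), 0.021 with limma on log2(FPKM + 0.1) and -0.46 to 0.30 with a replicate left out (0.30 without sham replicate 2). For Foxa1 with NDST3 against 6-OHDA the range with a replicate left out was -0.19 (without 6-OHDA+NDST3 replicate 1) to 0.55. For Shh against sham it was -0.078 (without sham replicate 1) to 0.22, with -0.074 without 6-OHDA+NDST3 replicate 2. The number of members called by the fold rule in 6-OHDA against sham was 6, and 6 to 7 with a replicate left out and 4 with limma on log2(FPKM + 1). In NDST3 against 6-OHDA it was 3, 3 to 4 with a replicate left out, and 1 with limma on log2(FPKM + 1), where adding 1 shrinks the change of low genes. Against sham it was 5, 5 to 7 with a replicate left out, and 2 with limma on log2(FPKM + 1). By adjusted p, the 6 members called after 6-OHDA became 3 with the replicate block, and 0 to 6 with a replicate left out. The 2 called in NDST3 against 6-OHDA became 0 with only the 2 groups, with the replicate block and with limma on log2(FPKM + 0.1), and 0 to 2 with a replicate left out. The count of 0 against sham became 5 with DESeq2, and 0 to 1 with a replicate left out. The replicate numbers of sham and 6-OHDA+NDST3 share only a number: their replicate 1 deviations correlated at -0.432 over 19300 genes. With the pairing crossed, an alternative chosen after seeing the data, the counts by adjusted p were 6, 3 and 5 members, and 7444, 4795 and 1194 of 19300 genes. The cause of these changes was not tested, apart from the construction of the log scale. Alternatives on H3K27ac and ATAC-seq regions gave no value, because no region is named for a member. Counts of 11 and 12 in the 6-OHDA library limit Pitx3 and Foxa2.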

Other observations

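Outside the members' own regions, regions were listed for some genes of the hedgehog list in ATAC-seq, with 1 library per group. Of 20 genes, 4 had a region, beside 9.82% of all tested genes. The Gli1 region at -429 bases from its start had a signal of 28.4 in sham, 44.0 after 6-OHDA and 44.9 with NDST3. Its region at -598 bases had 23.9, 29.25 and 34.7. The Gli3 region had 10.8, 3.0 and 3.5. That of Gli2 had 15.36, 11.25 and 8.69, and that of Hhat had 11.26, 5.25 and 11.03. Differences between these signals were not tested. Slc6a3, the dopamine transporter, had a signal of 24.9 in sham, 8.25 after 6-OHDA and 6.19 with NDST3. Slc10a4, the other gene of the dopaminergic list with a region, had a signal of 20.5, 28.3 and 21.7, while its RNA fell by 4.26 on the log2 scale after 6-OHDA. The RNA of Slc6a3 was at 228 and 244 CPM in sham, 0.155 CPM after 6-OHDA, and 6.38 and 1.34 CPM with NDST3.

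Shh and Foxa2 counts parted within libraries as well. The Shh count divided by the Foxa2 count was 1.154 and 1.19 in sham, 11.5 after 6-OHDA, and 2.33 and 4.16 with NDST3. The En1 count divided by the Lmx1b count was 1.59 and 2.19 in sham, 0.261 after 6-OHDA, and 4.36 and 1.65 with NDST3, so sham and NDST3 overlapped.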
